A study of Mus musculus with 6 samples.

Results

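The collagen genes of the mouse were compared between induced pluripotent stem cells (iPSCs, pluripotent cells obtained by reprogramming) with and without serum response factor (SRF). Members were all entries of the deposited count table whose symbol has the form of a collagen chain (Col, a type number, a, a chain number), which gave 44 of 24421 gene entries. Of these, 37 had a mean of at least 10 counts over the 6 libraries and are described below, namely 11 fibrillar, 5 basement-membrane and 21 other collagens. The 7 members below that mean were Col4a3, Col4a4, Col4a6, Col6a6, Col9a1, Col19a1 and Col25a1. Nearest to it were Col6a4 with a mean of 14.7 counts on the inside, and Col4a6 with 8.5 and Col25a1 with 6.33 on the outside.

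Bulk RNA sequencing was done on 3 libraries of SRF KO iPSCs (SRFΔ/Δ) and 3 of WT iPSCs (SRFf/f, which carry the conditional allele undeleted), both grown with serum. The labels give no agent, age or strain, and do not say whether the replicates were separate clones or cultures, so the p-values measure the spread between these libraries, which may be technical. If each group came from a single line, a difference between lines cannot be told apart from the loss of SRF. Srf, the targeted gene, had 113, 84 and 131 counts in SRF KO replicates 1 to 3 and 1326, 765 and 1066 counts in WT replicates 1 to 3, a fall by 3.12 on the log2 scale (SE 0.13). Library totals lay between 26321602 (WT replicate 2) and 36680156 (WT replicate 1). WT replicate 2 stood apart from the other WT libraries on the second principal component, at -14.7 against 5.32 and 10.2. All 8 pluripotency markers examined were present, with summed levels of 4612 to 4712 CPM (the unit of level used throughout: read counts relative to the TMM-scaled library total, on the usual CPM scale) in SRF KO and 5489 to 5935 CPM in WT. Of these 8 markers 4 were lower, 1 was higher and 3 did not pass the threshold, where 21.3% of all genes tested were lower and 21.2% higher. The lower markers were Nanog (log2 fold change -0.79), Esrrb (-0.49), Dppa5a (-0.42) and Tdgf1 (-0.2), and the higher one was Zfp42 (0.17). Pou5f1 (-0.08), Sox2 (-0.19) and Utf1 (0.07) were not called.

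Collagens are secreted proteins in which 3 chains wind into a helix. Fibrillar collagens pack side by side into the fibres of connective tissue, whereas type IV collagen forms the meshwork of basement membranes, the sheets on which epithelia rest. Other types decorate fibrils, form beaded filaments or anchoring fibrils, or stay in the plasma membrane. In the early embryo, type IV collagen and laminins are made in quantity by the primitive endoderm and its derivatives, while fibrillar collagens are typical of mesenchymal cells such as fibroblasts.

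Col4a1 and Col4a2, the chains of the common type IV collagen, showed the largest collagen changes together with Col23a1. Col4a1 and Col4a2 lie head to head at the same locus. In GENCODE M21 (assembly GRCm38), Col4a1 occupies chr8:11198423-11312826 on the minus strand and Col4a2 chr8:11312805-11449287 on the plus strand, so that their first exons share 22 bases. The RefSeq promoter windows (GRCm38.p6), which reach from 250 bases before to 50 bases after each start site, overlap by 78 bases. They are shown with those of Col23a1, which rose as strongly from another chromosome, and Col9a2, which fell most. Capitals mark GGGCGG, a GC box, on either strand, CCAAT on either strand in the windows of Col4a1 and Col4a2, and GATAA in that of Col9a2.
Col4a1, chr8:11312777-11313076, minus strand: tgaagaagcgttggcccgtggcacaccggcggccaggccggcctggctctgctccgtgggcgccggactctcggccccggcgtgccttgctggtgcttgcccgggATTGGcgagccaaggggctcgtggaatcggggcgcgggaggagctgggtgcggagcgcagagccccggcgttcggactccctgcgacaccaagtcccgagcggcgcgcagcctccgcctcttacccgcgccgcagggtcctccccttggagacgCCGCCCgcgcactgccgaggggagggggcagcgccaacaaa
Col4a2, chr8:11312555-11312854, plus strand: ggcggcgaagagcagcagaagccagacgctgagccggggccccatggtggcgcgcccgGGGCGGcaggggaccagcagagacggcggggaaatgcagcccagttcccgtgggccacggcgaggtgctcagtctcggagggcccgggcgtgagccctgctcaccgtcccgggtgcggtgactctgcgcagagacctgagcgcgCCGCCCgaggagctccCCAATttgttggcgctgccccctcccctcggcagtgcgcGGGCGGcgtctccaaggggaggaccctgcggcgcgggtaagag
Col23a1, chr11:51289670-51289969, plus strand: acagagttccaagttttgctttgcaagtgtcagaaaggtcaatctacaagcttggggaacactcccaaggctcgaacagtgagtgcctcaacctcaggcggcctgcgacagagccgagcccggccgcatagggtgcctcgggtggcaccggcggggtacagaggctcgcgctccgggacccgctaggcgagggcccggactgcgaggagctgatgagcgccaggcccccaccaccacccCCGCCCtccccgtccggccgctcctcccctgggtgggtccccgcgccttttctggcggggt
Col9a2, chr4:121039316-121039615, plus strand: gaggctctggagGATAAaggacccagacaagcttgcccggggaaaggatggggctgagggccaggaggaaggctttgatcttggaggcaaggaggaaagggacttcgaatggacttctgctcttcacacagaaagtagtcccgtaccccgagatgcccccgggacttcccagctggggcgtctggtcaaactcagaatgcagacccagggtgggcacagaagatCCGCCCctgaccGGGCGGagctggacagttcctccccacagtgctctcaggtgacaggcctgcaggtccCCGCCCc

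As a family, collagen transcripts were more abundant in SRF KO. Of the 37 genes, 27 were called at all, against 42.4% of the 14778 genes tested. Of the 37, 24 (64.9%) were higher and 3 (8.11%) lower at an adjusted p under 0.05 by edgeR's quasi-likelihood test, where 21.2% of all genes were higher and 21.3% lower. The median log2 fold change of SRF KO over WT was 0.84 over the 37 genes and -0.01 over all genes tested. A rise of at least 1 on the log2 scale was called for 13 members (35.1%), against 5.53% of all genes, and a fall of that size for 1 member, against 1.76%. The 3 SRF KO levels lay wholly above the 3 WT levels for 24 members (64.9%) and wholly below them for 4 (10.8%), against 26.2% and 26.5% of all genes. Both the count higher and the count of separated groups thus lay well above the background, and those lower lay below it. The count higher was 24 without WT replicate 2 and between 24 and 25 over the fits that each left out 1 library.

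**Figure D1:**
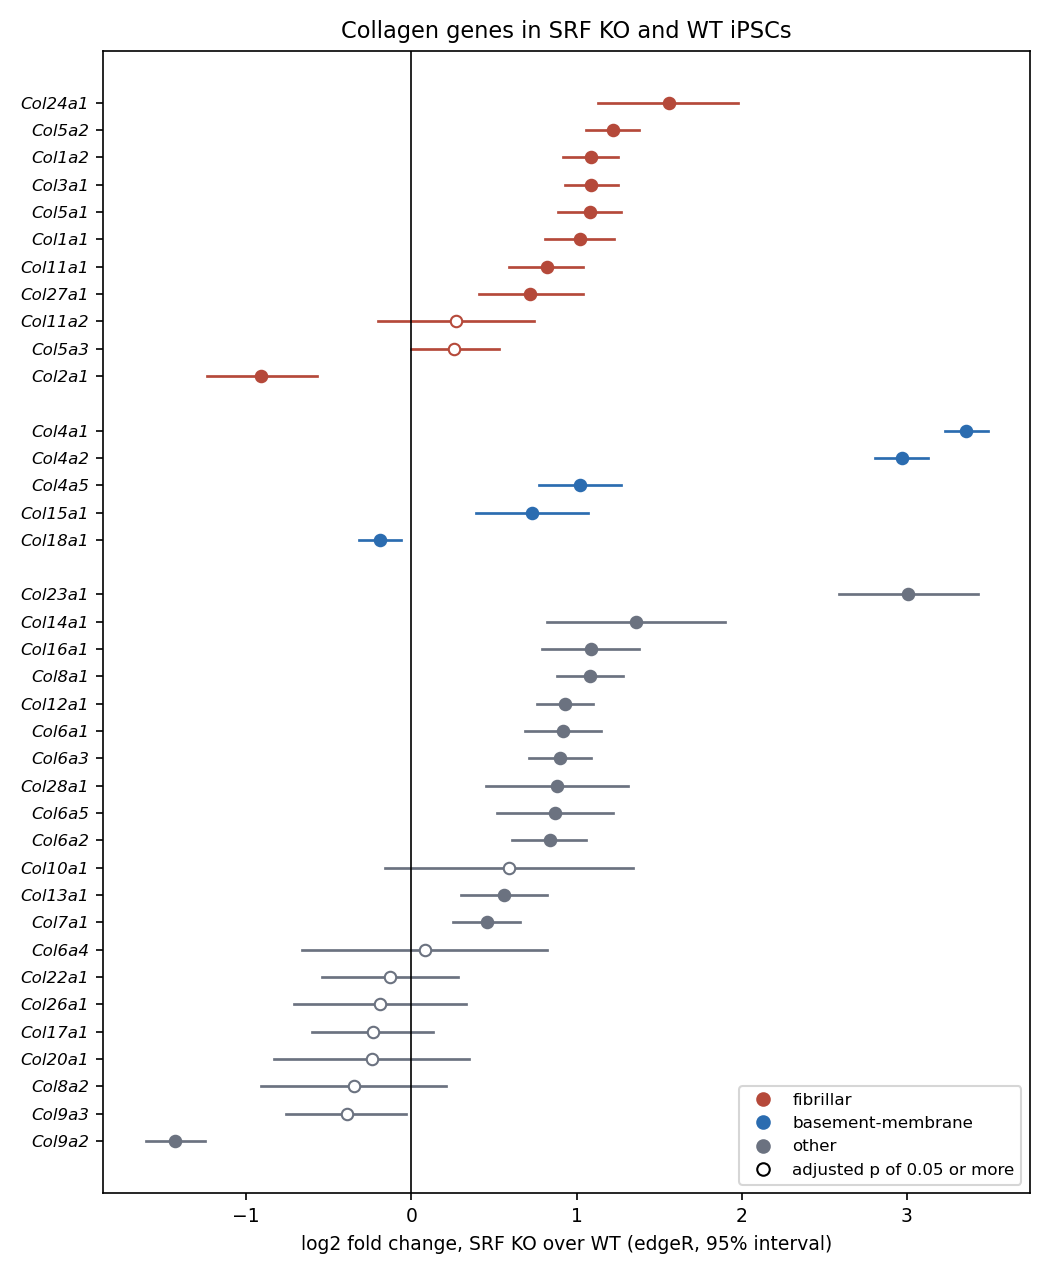
Log2 fold change of SRF KO over WT (x axis) for the 37 collagen genes with a mean of at least 10 counts, grouped by type and coloured as in the key. Points are edgeR estimates, bars their 95% intervals, and open points have an adjusted p of 0.05 or more. Col4a1, Col4a2 and Col23a1 sit near 3, most other called genes near 1, and Col2a1, Col18a1 and Col9a2 are the 3 called below 0.

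Of the 5 basement-membrane collagens 4 were higher and 1 was lower, and their median log2 fold change was 1.02. Col4a1 and Col4a2 changed far more than the other 3. Col4a1 had 775, 703 and 742 CPM in SRF KO replicates 1 to 3 and 69.5, 70.7 and 75.7 CPM in WT replicates 1 to 3. Its lowest SRF KO library was thus far above its highest WT library, and its mean rose 10.3-fold, from 72.0 ± 3.26 to 740.0 ± 36.2 CPM (SD, n = 3). The log2 fold change was 3.36 (SE 0.06, edgeR adjusted p 5.84e-12), which ranked 54 among the 14778 genes tested. Its partner Col4a2 had 419.6, 370.4 and 399 CPM in SRF KO and 50.2, 46.4 and 55.1 CPM in WT, again without overlap. Col4a2 rose by 2.97 on the log2 scale (SE 0.07, edgeR adjusted p 7.3e-11), or 7.83-fold.

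The remaining type IV chains were far less abundant. Col4a5, a chain of the less widespread type IV networks, had 8.43, 9.21 and 9.81 CPM in SRF KO and 3.95, 4.58 and 5.09 CPM in WT. It rose by 1.02 (SE 0.11, edgeR adjusted p 3.06e-05), with every SRF KO library above every WT library. Col4a6, which lies head to head with Col4a5 on chromosome X at a distance of 1308 bases, had 10, 6 and 8 counts in SRF KO and 9, 7 and 11 in WT. Col4a3 and Col4a4, the chains of the kidney and lung networks, had at most 2 counts in any library. Neither could be compared at this depth, since a count of 0 allows up to 3 counts, between 0.0828 and 0.117 CPM.

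The multiplexins, collagens XV and XVIII of the basement membrane zone, moved apart. Col15a1 had 2.45, 2.38 and 2.87 CPM in SRF KO and 1.44, 1.63 and 1.60 CPM in WT, and it rose by 0.73 (SE 0.16, edgeR adjusted p 0.00291). Col18a1, the source of the fragment endostatin, had 332, 311 and 325 CPM in SRF KO and 373, 341 and 391 CPM in WT. Its fall by 0.19 (SE 0.06, edgeR adjusted p 0.0203) was the smallest called change of any collagen. The call rested on single libraries: it was lost without SRF KO replicate 2 (-0.16), SRF KO replicate 3 (-0.20), WT replicate 1 (-0.18) or WT replicate 3 (-0.15), and with library totals in place of TMM factors (-0.15).

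Levels were set beside each other per length, as CPM per kilobase of the principal transcript. On this scale Col18a1 was the most abundant collagen in WT, at 76.9 ± 5.34, followed by Col1a1 at 22.3 ± 2.96, Col1a2 at 17.7 ± 1.55 and Col4a1 at 10.9 ± 0.493 (SD, n = 3). In SRF KO Col4a1 came first at 112 ± 5.47, followed by Col18a1 at 67.3 ± 2.26 and Col4a2 at 61.4 ± 3.83, then Col1a1 at 45.3 ± 4.71 and Col1a2 at 37.5 ± 3.15. The library values of some neighbours in these orders overlapped, namely Col18a1 (64.9 to 69.4) and Col4a2 (57.4 to 65.0) in SRF KO, Col1a1 (40.1 to 49.4) and Col1a2 (34.0 to 40.2) in SRF KO, and Col1a1 (19.2 to 25.2) and Col1a2 (16.6 to 19.5) in WT.

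**Figure D2:**
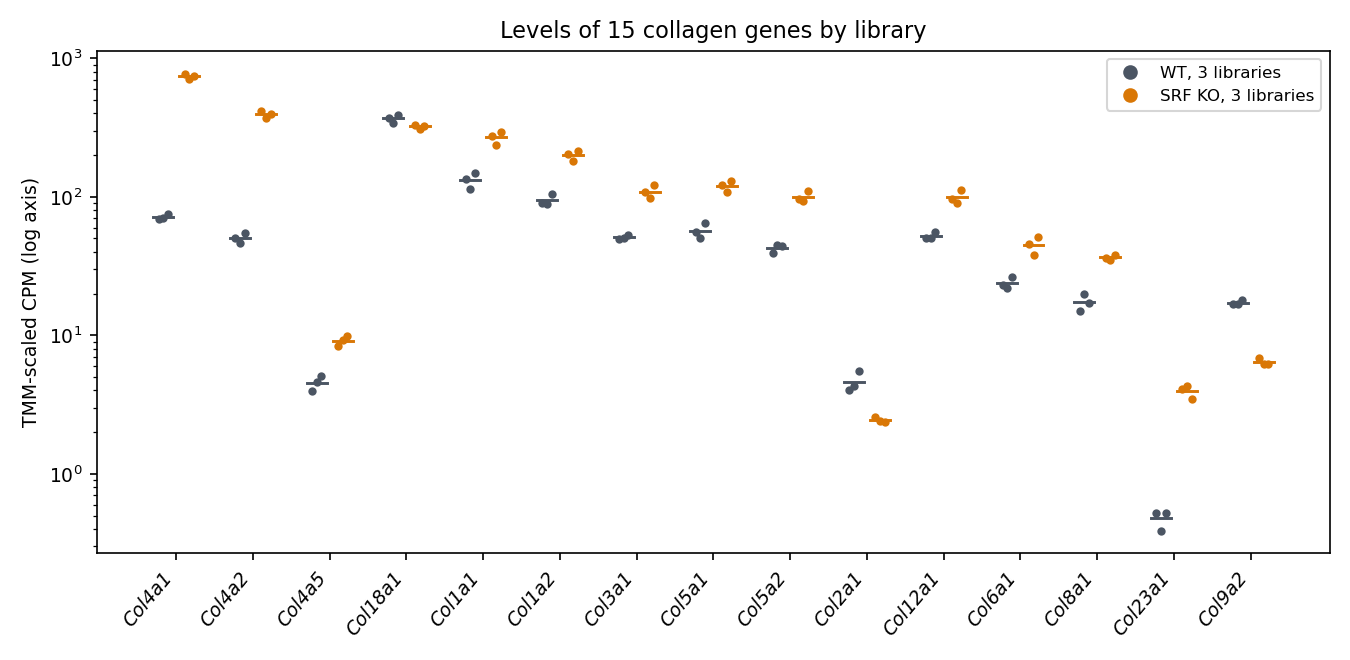
TMM-scaled CPM (log axis) of 15 collagen genes in each library, WT in grey and SRF KO in orange, with bars at the group means. Col4a1 moves from about 72.0 to 740.0 CPM, whereas Col18a1 stays between 311 and 391 CPM in the 6 libraries.

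Markers of primitive and parietal endoderm, with collagen genes left out, moved in the same direction as Col4a1 and Col4a2. All 12 of 12 were higher in SRF KO, where 21.2% of all genes tested were higher. Their median log2 fold change was 3.46, and single values lay between 0.25 and 3.95. Their summed level was 2675 to 2756 CPM in SRF KO and 1055 to 1089 CPM in WT, and none of the 12 was at 0 in all libraries. Most of that sum was Lama1, Lamb1, Lamc1 and Nid1, so it mainly follows these genes. Their means were 590.1, 467, 911 and 271 CPM in SRF KO and 87.4, 179, 534 and 228 CPM in WT. Gata4 and Gata6 had means of 58.4 and 53.8 CPM in SRF KO and 3.78 and 4.25 CPM in WT. The defining transcription factors Gata4 and Gata6 changed by 3.95 and 3.66. The partners of type IV collagen in the basement membrane on this list rose by unequal amounts, namely Lama1 by 2.76, Lamb1 by 1.38, Lamc1 by 0.77 and the linker Nid1 by 0.25, all on the log2 scale. Of 5 endothelial markers, a cell type that also makes type IV collagen, 4 were tested. Of these 1 was higher and 2 were lower, where 21.2% of all genes tested were higher and 21.3% lower. The higher one was Cdh5, the endothelial cadherin, at 4.54 ± 0.317 CPM in SRF KO against 0.195 ± 0.0693 CPM in WT (SD, n = 3), a log2 fold change of 4.56. Pecam1 and Tek changed by -0.92 and -0.50, Tie1 was not called (0.40), and Emcn, with at most 9 counts in any library, was not tested. The summed endothelial markers were 40.2 to 42.8 CPM in SRF KO and 62.6 to 69.9 CPM in WT. Most of that sum was Pecam1, at 29.4 ± 1.1 CPM in SRF KO against 55.6 ± 2.76 CPM in WT (SD, n = 3), so it mainly follows that gene. None of the 5 was at 0 in all libraries. The part of either marker list in the rise of Col4a1 and Col4a2 was not tested. In bulk RNA, a larger share of cells of a type and more RNA per cell cannot be told apart.

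Most fibrillar collagens rose, by less than Col4a1 and Col4a2. Of 11 genes, 8 were higher by 0.72 to 1.56 on the log2 scale, 1 was lower and 2 did not pass the threshold, and the median log2 fold change was 1.02. Col1a1, on chr11:94936224-94953042, encodes the major chain of type I collagen. It had 274, 238 and 293 CPM in SRF KO and 134, 114 and 149 CPM in WT, and rose by 1.02 (SE 0.09, edgeR adjusted p 6.74e-06). Col1a2, the partner chain on chr6:4504814-4541544, had 205, 182 and 215 CPM against 90.6, 88.9 and 104 CPM, and rose by 1.09 (SE 0.07, edgeR adjusted p 6.28e-07). For both genes the lowest SRF KO library, replicate 2, was well above the highest WT library, replicate 3.

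The main chains of types III and V, which assemble into fibrils with type I, rose by similar amounts. Col3a1 had 108, 97.7 and 121 CPM in SRF KO and 49.7, 50.5 and 53.3 CPM in WT, a rise of 1.09 (SE 0.07, edgeR adjusted p 5.15e-07). Col5a1, whose product limits fibril diameter, had 122, 109 and 129 CPM against 55.3, 50.7 and 64.9 CPM, a rise of 1.08 (SE 0.09, edgeR adjusted p 2.18e-06). Col5a2 had 95.9, 92.5 and 109.8 CPM against 39.6, 44.6 and 44.3 CPM, a rise of 1.22 (SE 0.07, edgeR adjusted p 2.08e-07). None of these 3 genes overlapped between the groups. Col3a1 and Col5a2 are neighbours on chromosome 1, arranged tail to tail 24.6 kb apart. Col5a3, the minor type V chain, had 13.9, 11.1 and 11.6 CPM in SRF KO and 10.5, 8.35 and 11.6 CPM in WT, groups that overlapped. Its log2 fold change was 0.26 (95% interval 0.00 to 0.53, edgeR adjusted p 0.108), and it passed the threshold without WT replicate 3 (0.36, adjusted p 0.0361) and with the replicate number as a block (0.27, adjusted p 0.029).

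Among the rarer fibrillar genes, Col24a1 had 3.53, 2.91 and 4.11 CPM in SRF KO and 0.938, 1.24 and 1.46 CPM in WT. Its rise of 1.56 (SE 0.20, edgeR adjusted p 7.38e-05) was the largest of the fibrillar group. Col11a1, which co-assembles with type II collagen in cartilage but is also made elsewhere, rose by 0.82 from 6.56 ± 0.255 to 11.6 ± 1.39 CPM, and Col27a1 rose by 0.72 from 2.76 ± 0.389 to 4.57 ± 0.527 CPM (SD, n = 3). Their edgeR adjusted p-values were 7.1e-05 and 0.00191. Col11a2 overlapped between the groups, with 1.34 ± 0.175 and 1.10 ± 0.249 CPM and a log2 fold change of 0.27 (95% interval -0.20 to 0.74, edgeR adjusted p 0.347).

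Col2a1, the chain of cartilage fibrils, went the other way. It had 2.56, 2.42 and 2.38 CPM in SRF KO and 4.0, 4.31 and 5.54 CPM in WT, so that all SRF KO libraries were below all WT libraries. The fall was by 0.91 on the log2 scale (SE 0.15, edgeR adjusted p 0.000591). Of the 6 cartilage markers examined, 5 were tested, and of all genes tested 21.2% were higher and 21.3% lower. Acan, the main cartilage proteoglycan, was lower (-0.67), Sox9, the transcription factor of cartilage formation, was higher (0.83), and 3 did not pass the threshold. Their summed level was low in all libraries, 14.2 to 16.3 CPM in SRF KO and 17.3 to 18.0 CPM in WT, and their part in the fall of Col2a1, or of Col9a2 below, was not tested.

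Fibroblast markers, with collagen genes left out, moved with the fibrillar group. Of 12 markers 11 were higher in SRF KO, where 21.2% of all genes tested were higher. The log2 fold changes of these 11 lay between 0.81 and 1.46, and 1 marker, Fap, was not called. Of the 24 collagens of all types that rose, 16 lay within that range, 4 above it and 4 below it. How many of all genes called higher lay within it was not computed. The summed fibroblast markers were 931, 824 and 1009 CPM in SRF KO replicates 1 to 3 and 403, 399 and 455 CPM in WT replicates 1 to 3. Among the 11 fibrillar genes, SRF KO replicate 3 was the highest SRF KO library for 9 and replicate 2 the lowest for 10. Among all 37 collagens these counts were 20 and 25. The share of all genes with these extremes was not computed, so no link to the fibroblast markers can be drawn from the order. For Col4a1 and Col4a2, SRF KO replicate 1 was the highest and replicate 2 the lowest. None of the 12 fibroblast markers was at 0 in all libraries, and their part in the rise of the fibrillar collagens was not tested.

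Among the other collagens, 12 of 21 genes were higher, 1 was lower and 8 did not pass the threshold, and their median log2 fold change was 0.59. Of 7 FACIT collagens, which sit on the surface of fibrils, 3 were higher, 1 was lower and 3 did not pass the threshold, and their median log2 fold change was -0.13. Col12a1, found on type I fibrils, had 96.0, 89.7 and 112 CPM in SRF KO and 50.8, 50.1 and 55.5 CPM in WT, a rise of 0.93 (SE 0.08, edgeR adjusted p 3.08e-06). Col16a1 and Col14a1 rose by 1.09 and 1.36, from 4.44 ± 0.89 to 9.44 ± 0.902 CPM and from 0.733 ± 0.0916 to 1.86 ± 0.553 CPM (SD, n = 3, edgeR adjusted p 6.47e-05 and 0.00105). In all 3 genes the groups did not overlap. Col9a2, a chain of the type IX collagen of cartilage fibrils, had 6.80, 6.23 and 6.19 CPM in SRF KO and 16.9, 16.9 and 17.9 CPM in WT. It fell by 1.43 (SE 0.08, edgeR adjusted p 1.33e-07), the largest fall of any collagen, ranked 88 from the bottom of all genes tested. Its partner Col9a3 had 1.97, 1.51 and 1.49 CPM against 2.21, 2.02 and 2.26 CPM. The groups did not overlap, but its change of -0.39 missed the threshold (95% interval -0.76 to -0.03, edgeR adjusted p 0.0801), except without SRF KO replicate 1 (-0.53, adjusted p 0.0498). The third partner, Col9a1, had 1 count in SRF KO replicate 1 and 0 in the other libraries. Exons of Col9a3 share 234 bases with Tcfl5 on the opposite strand, and since the labels do not say whether counting used strand, reads there may belong to either gene.

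Type VI collagen, which forms beaded filaments, rose as a set of its 3 main chains. Col6a1 had 45.5, 38.1 and 51.6 CPM in SRF KO and 23.0, 22.1 and 26.5 CPM in WT, a rise of 0.92 (SE 0.10, edgeR adjusted p 3.46e-05). Col6a2 had 26.9, 21.9 and 29.0 CPM against 14.7, 13.3 and 15.5 CPM, and Col6a3 had 39.2, 36.1 and 45.7 CPM against 21.2, 20.9 and 22.8 CPM. Their rises were 0.84 and 0.90 (SE 0.10 and 0.09, edgeR adjusted p 6.4e-05 and 8.85e-06), and none of the 3 genes overlapped between the groups. Col6a1 and Col6a2 lie on the same strand of chromosome 10, 85.2 kb apart. Col18a1, which did not rise, lies on the same strand with a gap of 326.0 kb between it and Col6a1. Of the alternative chains in the cluster on chromosome 9, Col6a5 rose by 0.87 from 2.94 ± 0.54 to 5.38 ± 0.782 CPM (SD, n = 3, edgeR adjusted p 0.00104). Col6a4, 28.8 kb from it, had 0.520 ± 0.167 and 0.478 ± 0.162 CPM and a log2 fold change of 0.08 (95% interval -0.66 to 0.82, edgeR adjusted p 0.877).

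The transmembrane collagens included the third large change. Col23a1, on chr11:51289920-51583918, had 110, 114 and 100 counts in SRF KO and 19, 10 and 15 counts in WT. These counts correspond to 4.09, 4.30 and 3.46 CPM against 0.524, 0.389 and 0.523 CPM. It rose by 3.01 (SE 0.19, edgeR adjusted p 3.38e-07), or 8.07-fold, and ranked 60 among all genes tested, between Col4a1 at 54 and Col4a2 at 63. Its wide interval of 2.59 to 3.43 covers the estimates of both type IV chains. Col13a1, a transmembrane collagen of cell junctions, rose by 0.56 from 3.12 ± 0.238 to 4.60 ± 0.232 CPM (SD, n = 3, edgeR adjusted p 0.00295). Col17a1, a component of hemidesmosomes, overlapped between the groups, with 2.47 ± 0.514 and 2.87 ± 0.248 CPM and a log2 fold change of -0.23 (95% interval -0.60 to 0.13, edgeR adjusted p 0.29).

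Of the remaining types, Col8a1, a short-chain collagen that forms hexagonal networks, had 36.2, 35.1 and 38.2 CPM in SRF KO and 15, 19.9 and 17.2 CPM in WT. Col8a1 rose by 1.08 (SE 0.09, edgeR adjusted p 3.62e-06) with no overlap. Its partner Col8a2 did not pass the threshold (-0.35, 95% interval -0.91 to 0.21, edgeR adjusted p 0.307), at 0.653 ± 0.141 and 0.823 ± 0.154 CPM. Col7a1, which builds the anchoring fibrils under epithelia, rose by 0.46 from 9.37 ± 1.02 to 12.9 ± 0.697 CPM, and Col28a1 rose by 0.88 from 0.959 ± 0.152 to 1.78 ± 0.228 CPM (SD, n = 3, edgeR adjusted p 0.00248 and 0.0037). The other 4 genes without a call had between 0.466 and 1.44 CPM in both groups. Their log2 fold changes were 0.59 for Col10a1 (95% interval -0.16 to 1.34), -0.13 for Col22a1 (-0.54 to 0.28), -0.24 for Col20a1 (-0.83 to 0.35) and -0.19 for Col26a1 (-0.71 to 0.33). All 4 intervals included 0, and whether depth limited these calls was not tested.

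The 10 collagens that rose with a mean of at least 500 counts, Col4a1 and Col4a2 left out, had log2 fold changes between 0.84 and 1.22. They were Col1a1, Col1a2, Col3a1, Col5a1, Col5a2, Col6a1, Col6a2, Col6a3, Col8a1 and Col12a1. Reads of all 44 collagen genes summed to 2607 ± 159 CPM in SRF KO against 1081 ± 76.7 CPM in WT (SD, n = 3). Col4a1 and Col4a2 made up 43.6% ± 1.39 of these reads in SRF KO and 11.3% ± 0.214 in WT. The fibrillar sum was 833 ± 77.3 CPM in SRF KO against 404 ± 36.2 CPM in WT, and its share of collagen reads was 31.9% ± 1.27 and 37.4% ± 0.71. Without Col4a1 and Col4a2, the sum was 1470 ± 112 CPM in SRF KO against 958 ± 69.6 CPM in WT. These sums are of reads, to which long transcripts add more, and carry no test.

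**Figure D3:**
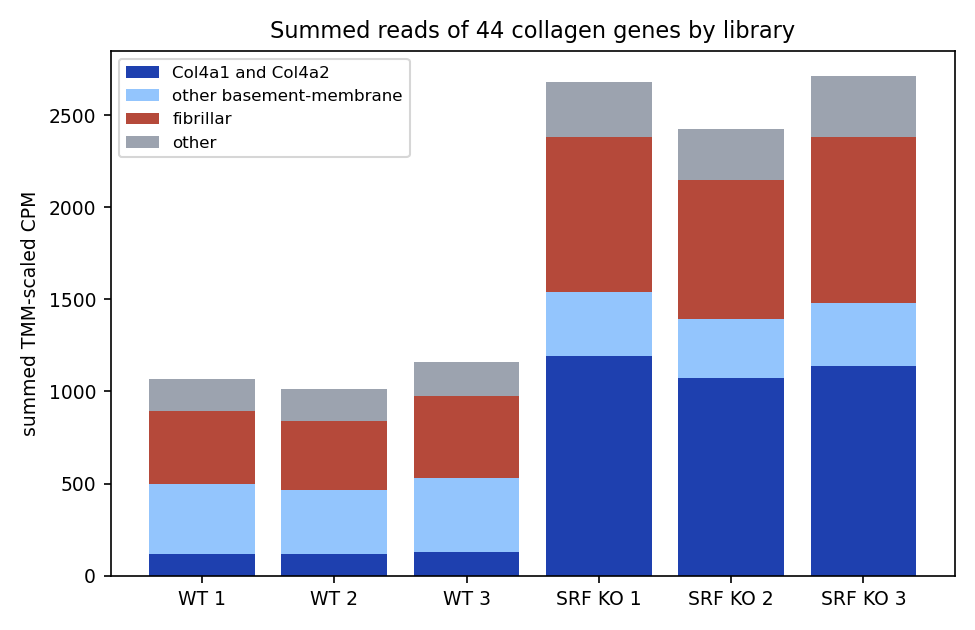
Summed TMM-scaled CPM of the 44 collagen genes in each library (y axis), stacked by type. Col4a1 and Col4a2 together hold 117 to 131 CPM in the WT libraries and 1073 to 1195 CPM in the SRF KO libraries, and the fibrillar part is 373 to 444 and 752 to 906 CPM.

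Ratios of chains within a library need no scaling between libraries, and show whether chains that assemble together changed in step. Of 8 pairs considered 6 had enough counts. The ratio of Col4a1 to Col4a2 counts was 1.85, 1.90 and 1.86 in SRF KO and 1.38, 1.52 and 1.37 in WT, with no overlap. Per length, it was 1.82 ± 0.0258 in SRF KO against 1.39 ± 0.0817 in WT (SD, n = 3), so that Col4a1 gained relative to its partner by 0.39 on the log2 scale. The exact two-sided permutation p was 0.1, the smallest that 3 libraries against 3 allow, and 0.3 after Benjamini-Hochberg adjustment over the 6 pairs. The ratio of Col1a1 to Col1a2 counts overlapped between the groups, at 1.34, 1.31 and 1.36 in SRF KO and 1.48, 1.28 and 1.43 in WT (log2 difference -0.06, exact permutation p 0.4, adjusted 0.48).

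The neighbours Col3a1 and Col5a2 had ratios of 1.13, 1.06 and 1.10 in SRF KO and 1.25, 1.13 and 1.20 in WT, groups that nearly touched (log2 difference -0.13, exact permutation p 0.1, adjusted 0.3). For Col5a1 to Col5a2 the log2 difference was -0.13, for Col6a1 to Col6a2 0.08 and for Col6a1 to Col6a3 0.02, all with overlapping groups and exact permutation p-values of 0.4, 0.2 and 0.9 (adjusted 0.48, 0.4 and 0.9).

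**Figure D4:**
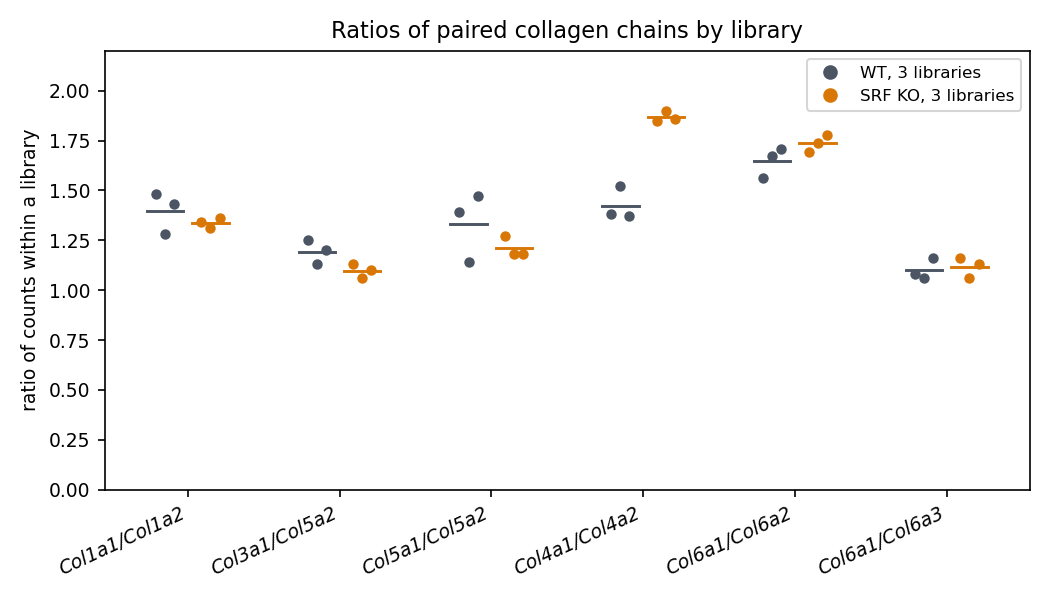
Ratio of the counts of paired collagen chains within each library (y axis), WT in grey and SRF KO in orange, with bars at the group means. The ratio of Col4a1 to Col4a2 is 1.85 to 1.90 in SRF KO and 1.37 to 1.52 in WT, and the other pairs differ less.

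Promoter windows were available for 29 of the 37 genes, as 31 windows of 300 bases. The genes without a window were Col1a1, Col2a1, Col5a2, Col9a3, Col12a1, Col14a1, Col22a1 and Col26a1. The CArG box, the DNA element bound by SRF, was searched on both strands and was present in 1 of 31 windows (3.23%), against 1.63% of all 32851 RefSeq windows. That window belongs to Col6a4, which did not change detectably. The element, in capitals, and 10 bases on each side are as follows.
Col6a4, chr9:106096883-106096912, minus strand: gagccaatgaCCATTTTTGGcgaatggcaa
GGGCGG was present in 20 windows (64.5%, against 35.7% of all), CCAAT in 11 (35.5%, against 37.4%), GATAA, the core of GATA factor sites, in 6 (19.4%, against 25.4%) and TATAAA in 5 (16.1%, against 13.6%), each on either strand. Both type IV windows printed above hold GGGCGG and CCAAT and neither holds GATAA. The GGGCGG of the Col4a1 window lies in the 78 shared bases and is the same site as the last GGGCGG of the Col4a2 window. In the Col17a1 window a GATAA and a CCAAT match overlap. GC content had a median of 52.7% over all windows. Member windows ran from 37.7% (Col3a1) to 75.0% (Col5a1), most of them above that median, and the motif shares were not adjusted for it. These matches describe letters in short windows only.

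Collagen chains need a dedicated set of enzymes and chaperones, and most of these genes were higher in SRF KO as well. Of 59 genes listed by role 54 were tested, of which 44 were higher, 2 were lower and 8 did not pass the threshold, where 21.2% of all genes tested were higher and 21.3% lower. The median log2 fold change of the 54 was 0.68, against -0.01 over all genes. All 14 genes tested for the modification of proline and lysine in the endoplasmic reticulum rose, with values between 0.35 and 2.22. P4hb, the shared subunit of prolyl 4-hydroxylase, rose by 0.61 from 430.5 ± 9.76 to 658 ± 13.6 CPM (SD, n = 3, edgeR adjusted p 1.45e-06). The catalytic subunits P4ha1 and P4ha2 rose by 0.43 and 1.0 (edgeR adjusted p 2.77e-05 and 2.92e-06), and the collagen galactosyltransferase Colgalt1 by 0.62 (edgeR adjusted p 7.61e-06).

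In folding and export, 7 of 11 genes were higher, 1 was lower and 3 were not called. Serpinh1, the collagen-specific chaperone HSP47, rose by 1.73 from 96.9 ± 8.81 to 322 ± 8.79 CPM (SD, n = 3, edgeR adjusted p 3.57e-09). Sparc, a secreted collagen-binding protein abundant in parietal endoderm, rose by 1.80 from 218 ± 7.12 to 759.8 ± 38.2 CPM (SD, n = 3, edgeR adjusted p 5.64e-10). Creb3l1, a transcription factor of the secretory pathway, rose by 0.89. The Mia2 entry, counted among the 7, had 47, 24 and 33 counts in SRF KO and 1, 0 and 1 in WT. It was at least 12.5-fold higher against a floor of 3 counts per WT library. Ctage5, an older symbol of Mia2 with an entry of its own, had 110.2 ± 4.38 CPM in SRF KO against 98.1 ± 6.4 CPM in WT (SD, n = 3), a log2 fold change of 0.17. The Mia2 entry held only 1.26 ± 0.433 CPM in SRF KO, so its rise cannot be read as that of the whole gene. With Mia2 at that bound the median log2 fold change of this role was 0.66.

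Of 7 genes tested for removal of the propeptides 5 were higher, 1 was lower and 1 was not called. The procollagen C-proteinases Bmp1 and Tll1 rose by 1.05 and 1.23 (edgeR adjusted p 1.02e-05 and 2.9e-06), while Adamts14, an N-proteinase, fell by 0.57 (edgeR adjusted p 0.000104). All 6 cross-linking genes rose. Among them were Lox, the lysyl oxidase, by 1.11 from 68.2 ± 7.4 to 147 ± 10.4 CPM (SD, n = 3, edgeR adjusted p 7.47e-07), Loxl2 by 0.80, and Pxdn, the peroxidasin that cross-links type IV collagen, by 0.76.

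Of 8 receptor genes tested 5 were higher and 3 were not called. Ddr2, a receptor tyrosine kinase for fibrillar collagen, rose by 1.45 from 13.7 ± 0.298 to 37.3 ± 1.72 CPM (SD, n = 3, edgeR adjusted p 2.32e-08). The integrin chains Itgb1 and Itga11 rose by 0.72 and 0.99 (edgeR adjusted p 5.65e-07 and 2.85e-05). Among 8 genes of degradation and its inhibition 7 were higher and 1 was not called. The inhibitors of metalloproteinases Timp1, Timp2 and Timp3 rose by 1.05, 1.33 and 1.01 (edgeR adjusted p 7e-07, 3.34e-07 and 5.68e-07).

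**Figure D5:**
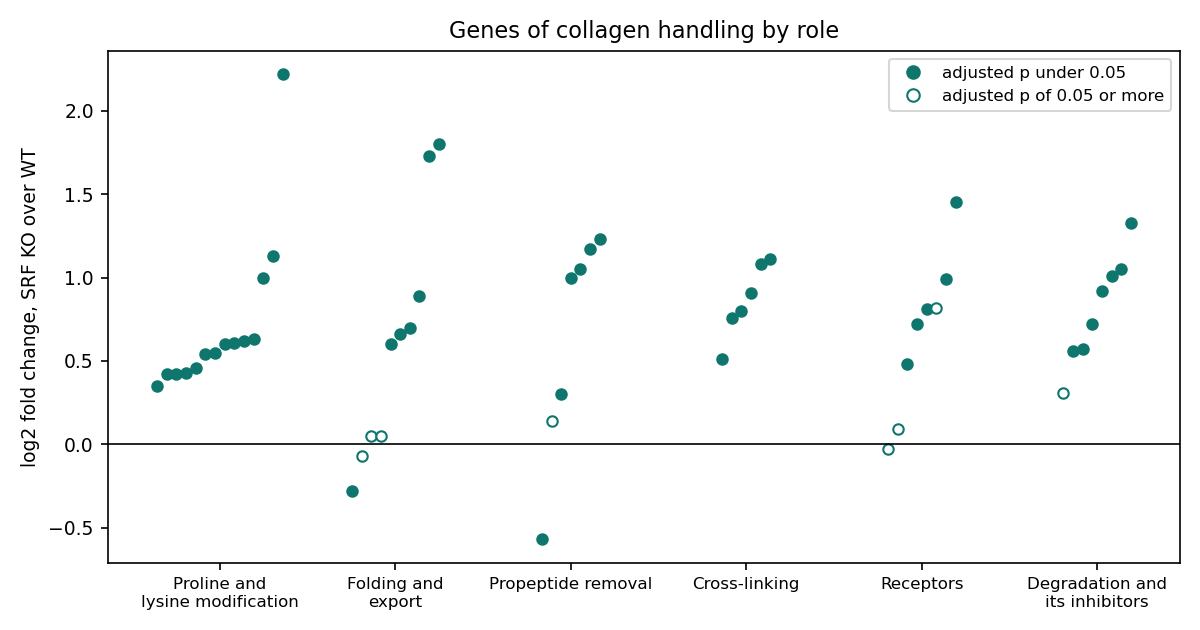
Log2 fold change of SRF KO over WT (y axis) for 53 of the 54 tested genes of collagen handling, grouped by role and sorted within each role, with Mia2 left out because its WT counts were at most 1. Open points have an adjusted p of 0.05 or more. All 14 modification genes and all 6 cross-linking genes lie above 0.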

How the data were processed

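Per the labels' protocols, total RNA was taken with TRIzol and sequenced as paired reads of 150 bp, after which reads with adaptors or poor quality were discarded. The submitters' processing notes name mm10 and DESeq2; the aligner, the counting program, its annotation and its use of strand are not given in the sources used here. The deposited table holds raw counts per gene and per transposable element subfamily, without normalization. In R 4.3.3, 15611 entries that passed filterByExpr (minimum count 10) were fitted together with edgeR 4.0.16 (TMM factors, quasi-likelihood test) and p-values were adjusted over all of them by the Benjamini-Hochberg method. Levels are TMM-scaled CPM. SE was derived from this test, as the absolute log2 fold change divided by the square root of the F statistic. The 95% intervals are t intervals on that SE, and ranks count genes alone. All 37 described members passed the filter. Positions, exon overlaps and lengths (longest transcript of the best APPRIS rank) came from GENCODE M21, which held all 44 members; promoter windows came from RefSeq (GRCm38.p6).

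Basement-membrane collagens were types IV, XV and XVIII. The members, the lists of genes by role, the cell type markers and the rule for naming genes (all described members, Srf, up to 3 genes per role with the smallest p, and Lox, Serpinh1, P4ha1 and Bmp1) were chosen with earlier results of these data known. Mia2 and the marker genes singled out were named after its values were seen. Of the skin epithelium markers 1 was tested and 0 were called. Deviations from the group means correlated by 0.0679, 0.381 and 0.229 between libraries of equal number, which were not treated as pairs. Alternatives were DESeq2 1.42.0, other scaling, filters, thresholds, gene entries alone, a replicate block and leaving out each library. Floors and intervals cover counting error only where they rest on single counts. The code was tested on simulated data.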

Additional observations from a re-analysis of the deposited data

How the results depend on the processing

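The number of collagen genes higher was 24 or 25 under DESeq2, other scaling, no filter, gene entries alone and every omission of 1 library, and it was 13 when a log2 change of 1 or more was also required, with 1 collagen lower, 0 fibrillar genes lower and 4 other collagens higher. Such thresholds lower counts by construction. The single basement-membrane fall, Col18a1, gave a count of 0 with library totals alone, at an adjusted p under 0.01 and at the fold threshold, and between 0 and 1 over the fits without 1 library. Other collagens lower were between 1 and 2 over those fits (2 without SRF KO replicate 1), and all collagens lower between 2 and 4. The log2 difference of the Col6a1 to Col6a3 ratio was between -0.01 and 0.06 over the omissions, and changed sign without SRF KO replicate 1 (-0.01) or WT replicate 2 (-0.01). Uncalled changes turned for Col22a1 without WT replicate 1 (0.02; range over the omissions -0.21 to 0.02) and for Col6a4 without SRF KO replicate 1 (-0.13) or WT replicate 2 (-0.12; range -0.13 to 0.37). The cause of these turns was not tested. With a replicate block 25 collagens were higher and 3 lower, Col5a3 passed the threshold (0.27), and no other collagen call changed; the libraries share only a number. Of the other comparisons of single collagens with an alternative, 433 kept direction and call, as did all 240 of the pathway genes and Srf. Depth limits members with few counts, such as Col6a4 and Col10a1.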

Other observations

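The 7 collagens under a mean of 10 counts were not part of any comparison. Col25a1 had 5, 7 and 2 counts in SRF KO and 9, 3 and 12 in WT. Col6a6 had 5, 4 and 2 counts against 6, 3 and 7, and Col19a1 had 0, 1 and 3 against 0, 0 and 2. Col4a4 had 1 count in each SRF KO library and 0 in each WT library.

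The table lists Ctage5, an older symbol of Mia2, as an entry of its own. Ctage5 had 110.2 ± 4.38 CPM in SRF KO against 98.1 ± 6.4 CPM in WT (SD, n = 3), a log2 fold change of 0.17 (edgeR adjusted p 0.0353), far from that of the Mia2 entry. Mia3, its partner in the export of bulky cargo, had 103 ± 2.15 and 99.7 ± 6.14 CPM and did not pass the threshold (0.05, 95% interval -0.06 to 0.17, edgeR adjusted p 0.456). P3h2, a prolyl 3-hydroxylase known to act on type IV collagen, had the largest rise of the modification genes, 2.22, from 0.491 ± 0.0555 to 2.33 ± 0.408 CPM (SD, n = 3, edgeR adjusted p 9.96e-06). Ctage5, Mia3 and P3h2 were chosen after their values were seen.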
